A study of Mus musculus with 12 samples.

Results

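Keratins are the intermediate filament proteins of epithelial cells, and the 54 keratin genes of the mouse tables were described across the distal colon and the urinary bladder of control mice and of mice that lack YAP and TAZ in smooth muscle. A gene was taken as a keratin if its name was Krt followed by a number and, where present, the letter a or b, which left out the keratin-associated proteins of hair. The rule found 54 genes among the 54532 genes of the tables. All mice carried floxed *Yap1* and *Wwtr1* alleles. Y/T KO mice also carried *Myh11*CreERT2, a Cre recombinase that is activated by tamoxifen and driven by the promoter of the smooth muscle myosin heavy chain, and the Cre-negative mice (Ctrl) received the same tamoxifen. Male mice of 5 to 7 weeks were given 1 mg tamoxifen per day on 5 days, and whole tissue was taken on day 7 after the first dose. There were 3 libraries in each of 4 groups, namely Ctrl colon (mice 788, 786 and 787), Y/T KO colon (mice 759, 783 and 780), Ctrl bladder (mice 784, 785 and 788) and Y/T KO bladder (mice 782, 783 and 780), and values of a group are given in this order of mice. Of the 9 mice, 3 (788, 783 and 780) gave both tissues. The Cre is active in smooth muscle, whereas keratins are made mainly by epithelium, which the deletion does not target by design. Whole tissue was measured, so the cells that made each keratin transcript are not known.

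A keratin filament is built from a type I (acidic) and a type II (basic) protein, and each kind of epithelium uses its own pairs. Simple epithelia such as the lining of the gut are known for *Krt8* with *Krt18*, *Krt19* and *Krt20*, and *Krt7* is added in ducts and in the urothelium of the bladder. The basal layer of stratified epithelia is known for *Krt5* with *Krt14* or *Krt15*, the upper layers for pairs such as *Krt4* with *Krt13* and *Krt1* with *Krt10*, and a large group is known from hair, nail and the filiform papillae of the tongue. By these textbook classes the 54 genes held 5 simple, 7 stratified basal or activated, 11 stratified differentiating and 24 hair and nail keratins, and 7 others.

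The members lay in a pair of gene clusters. The 27 keratins on chromosome 11 were all of type I and spanned 99232761 to 100269871 (GRCm38), and the 27 on chromosome 15 spanned 101347444 to 102032027 and were of type II except *Krt18*, a type I gene at the edge of the type II cluster. The promoter table of RefSeq (GRCm38.p6) held an entry for 36 of the 54 genes, in 37 windows. In the last 50 bases before the annotated start, a TATA-like run (TATAA or ATAAA on the strand of the gene, which overlap in TATAAA) was found in 29 of the 37 keratin windows (78.4%) and in 8.7% of all 32851 promoter windows of the table. The core of the site bound by TEAD factors, through which YAP and TAZ act on genes (GGAATG, searched on both strands in the 250 bases before the start), was found in 3 of 37 keratin windows (8.1%) and in 12.6% of all windows. A match is a run of letters and not a measured site. The windows of 5 keratins on which the results below turn are shown, 250 bases each on the strand of the gene, with the TATA-like run and any TEAD core in capitals. They are those of *Krt36* (chr11:100105627-100105876), *Krt84* (chr15:101532821-101533070) and *Krt13* (chr11:100121567-100121816), which had higher values in the Y/T KO colon, of *Krt5* (chr15:101712906-101713155), which had lower values in the Y/T KO bladder, and of *Krt20* (chr11:99438154-99438403), all on the minus strand. *Krt13* has a second window, at chr11:100120578-100120827, with no TATA-like run and no TEAD core, and the one shown is that before the start of the gene as the files give it.
Krt36: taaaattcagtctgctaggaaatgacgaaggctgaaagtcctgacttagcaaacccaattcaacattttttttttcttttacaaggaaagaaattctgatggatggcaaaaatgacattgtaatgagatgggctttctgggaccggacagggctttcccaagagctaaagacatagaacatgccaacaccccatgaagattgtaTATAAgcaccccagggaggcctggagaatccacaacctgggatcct
Krt84: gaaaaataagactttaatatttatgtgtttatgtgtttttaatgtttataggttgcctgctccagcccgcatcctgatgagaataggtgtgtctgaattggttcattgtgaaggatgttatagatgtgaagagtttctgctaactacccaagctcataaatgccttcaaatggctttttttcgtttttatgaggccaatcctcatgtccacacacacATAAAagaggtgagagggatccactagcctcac
Krt13: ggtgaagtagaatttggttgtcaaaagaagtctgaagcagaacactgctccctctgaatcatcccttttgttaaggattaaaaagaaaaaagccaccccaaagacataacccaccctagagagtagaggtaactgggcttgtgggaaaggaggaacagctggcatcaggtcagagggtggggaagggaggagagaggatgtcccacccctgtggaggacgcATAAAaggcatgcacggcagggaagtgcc
Krt5: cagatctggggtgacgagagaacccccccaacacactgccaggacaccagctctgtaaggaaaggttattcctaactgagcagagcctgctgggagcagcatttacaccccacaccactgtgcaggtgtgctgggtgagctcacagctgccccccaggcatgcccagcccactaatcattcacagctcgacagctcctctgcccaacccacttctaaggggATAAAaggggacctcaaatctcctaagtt
Krt20: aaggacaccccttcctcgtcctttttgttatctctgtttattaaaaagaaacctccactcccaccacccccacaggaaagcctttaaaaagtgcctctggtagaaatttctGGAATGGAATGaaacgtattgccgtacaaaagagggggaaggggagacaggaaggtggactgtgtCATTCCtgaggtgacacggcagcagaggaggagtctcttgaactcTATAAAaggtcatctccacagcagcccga
The 3 cores of *Krt20*, of which a pair overlap and another lies on the opposite strand (CATTCC), were the most in any keratin window, the other windows with a core being those of *Krt14* and *Krt78*. The level of *Krt20* overlapped between Ctrl and Y/T KO libraries in both tissues, as did that of *Krt78*. *Krt14*, with 1 core, overlapped in colon. Its window (chr11:100206031-100206280) lies inside the span of the gene as the files give it (100203162 to 100207548), and not before that start. In bladder *Krt14* was at 4.23, 9.14 and 8.26 TPM (Ctrl) against 1.76, 0.796 and 2.08 TPM (Y/T KO). No TEAD core was found in the windows of *Krt36*, *Krt84*, *Krt13* and *Krt5*. *Krt17*, which had lower values in the Y/T KO colon, had no promoter entry. Whether TEAD cores go with the genotype differences was not tested. Among the 5 windows shown, that of *Krt36* also held 21 bases of an exon of the long noncoding RNA *Gm12347*, and the other 4 held no annotated exon.

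Levels were in TPM, which counts transcripts against the whole library and corrects for gene length, so that levels of different keratins can be set beside each other. Per library, 2.80 to 3.94 gigabases were aligned to genes, and 1 TPM stood for a mean read coverage of 0.809 to 1.24 per base. The tissue labels held. The summed level of 6 urothelial markers was 5029 to 6538 TPM in the bladder libraries and at most 33.2 TPM in the colon libraries, and that of 10 colonic epithelial markers was 8284 to 11700 TPM in colon and 20.3 to 55.8 TPM in bladder, although the goblet cell mucin *Muc2* was near 0 in colon as well, at 0.0288 to 0.917 TPM. In colon, *Yap1* was at 54.9, 52.8 and 45.8 TPM (Ctrl) against 44.0, 41.3 and 47.0 TPM (Y/T KO), which overlap, and in bladder at 101, 98.6 and 110 TPM (Ctrl) against 71.3, 69.4 and 72.1 TPM (Y/T KO), which do not (log2 fold change −0.54, limma adjusted p = 0.0625). *Wwtr1* overlapped between genotypes in both tissues, and since gene-level values do not separate the floxed exons and whole tissue holds cells without Cre, these values are a limited check of the deletion. In bulk tissue, fewer cells of a type and less RNA per cell cannot be told apart.

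Of the 54 keratins, 16 were above 0 in all 12 libraries, 20 in some of them, and 18 were listed at 0 in every library. All 5 simple keratins, all 7 basal or activated keratins and 9 of 11 differentiating keratins were above 0 in at least 1 library, against 9 of 24 hair and nail keratins. The 22 keratins with a mean of at least 1 TPM in a group, or called in a comparison, are named here. The other 14 that were above 0 reached at most 1.53 TPM, in *Krt12*, a keratin known from the cornea that was singled out after its values were seen. The plot of keratin levels by library shows the members above 0.

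**Figure D1:**
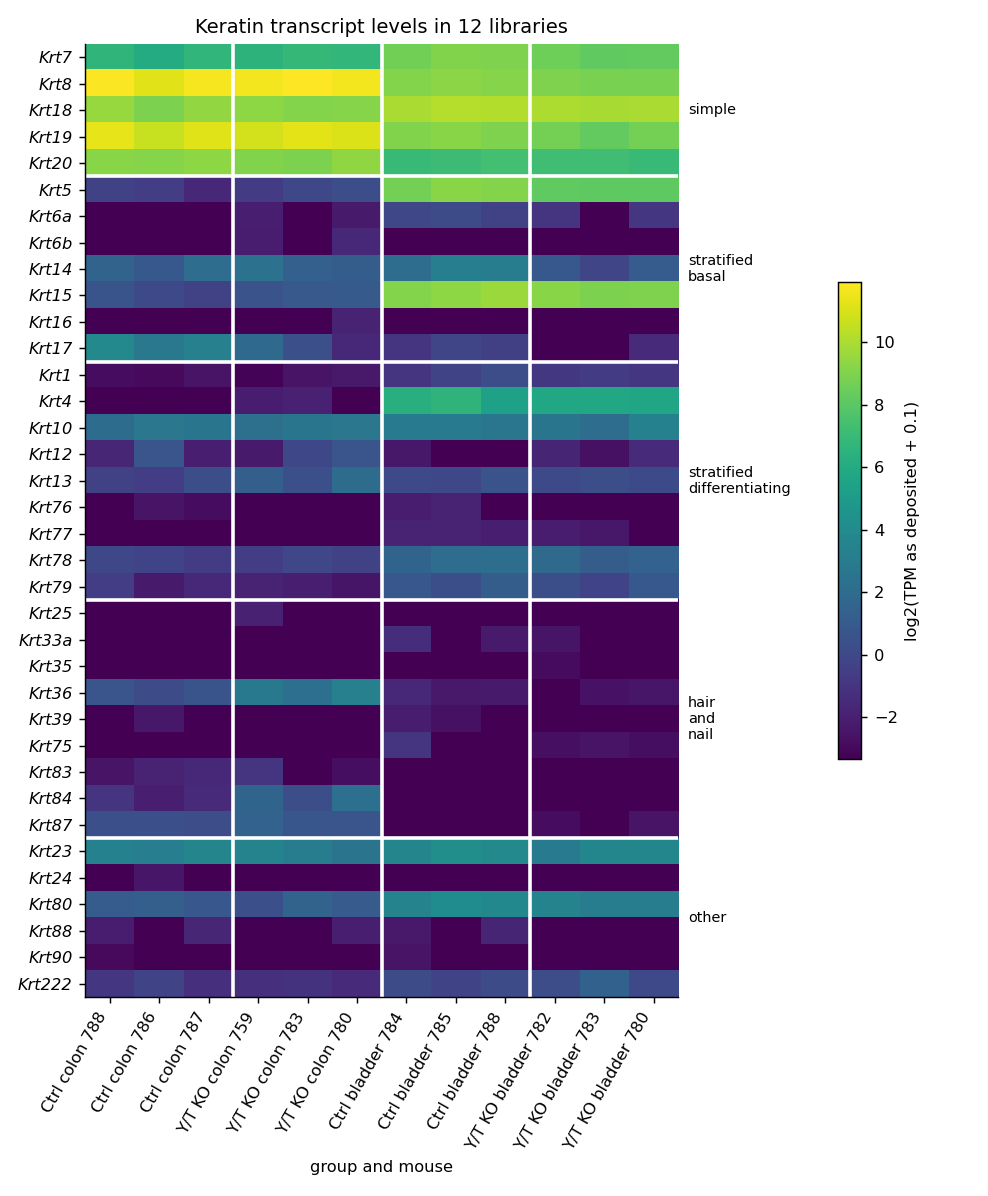
Levels of the 36 keratins above 0 in at least 1 library, as log2(TPM as deposited + 0.1), with 1 column per library (group and mouse) and 1 row per gene, ordered by keratin class. Simple keratins are high in all 12 libraries, *Krt5*, *Krt15* and *Krt4* are high in the 6 bladder libraries, and *Krt36* and *Krt84* are brightest in the 3 Y/T KO colon libraries.

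The colon was a tissue of simple keratins. These 5 genes made up 99.4% ± 0.0706 (SD, n = 3) of the keratin TPM in Ctrl colon and 99.4% ± 0.132 in Y/T KO colon, and all keratins together made up 0.664% ± 0.134 of the library TPM in Ctrl colon and 0.692% ± 0.0617 in Y/T KO colon. *Krt8*, the type II keratin of simple epithelium, was the most abundant, at 3607, 2390 and 3347 TPM (Ctrl) against 3210, 3873 and 3228 TPM (Y/T KO). Next came *Krt19*, a type I keratin without the usual tail, at 2590, 1579 and 2285 TPM (Ctrl) against 1861, 2543 and 2180 TPM (Y/T KO). The levels of these genes overlapped between genotypes, and the Ctrl library of mouse 786 was the lowest for both. *Krt18*, the usual partner of *Krt8*, was at 755, 489 and 700 TPM (Ctrl) against 647, 541 and 567 TPM (Y/T KO). *Krt20*, known from differentiated surface cells of the gut and from umbrella cells of the bladder, was at 585, 571 and 633 TPM (Ctrl) against 514, 479 and 664 TPM (Y/T KO). *Krt18* and *Krt20* overlapped with each other and between genotypes, and *Krt7* was the lowest of the 5 simple keratins, at 66.1 to 104 TPM (Ctrl) against 90.8 to 112 TPM (Y/T KO). The ratio of *Krt8* to *Krt18* was 4.78 to 4.89 in the 3 Ctrl colon libraries and 4.96 to 7.16 in the 3 Y/T KO colon libraries. A processed copy, *Krt8-ps*, shares 941 bases with *Krt8* at 98.6% identity and was listed at 53.1 to 85.5 TPM in colon, so reads of this stretch may be split between the pair.

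The bladder added stratified keratins to a lower level of simple keratins. Simple keratins made up 68.6% ± 1.87 (SD, n = 3) of the keratin TPM in Ctrl bladder and 72.1% ± 0.484 in Y/T KO bladder, and stratified keratins made up 30.7% ± 1.88 and 27.2% ± 0.452. *Krt18* led, at 997, 1191 and 1128 TPM (Ctrl) against 1055, 965 and 998 TPM (Y/T KO). *Krt15*, a type I keratin of basal cells, was at 540, 654 and 802 TPM (Ctrl) against 586, 489 and 508 TPM (Y/T KO). *Krt8* was at 537, 622 and 566 TPM (Ctrl) against 494, 462 and 458 TPM (Y/T KO). In Ctrl bladder the order by mean level was *Krt18*, *Krt15*, *Krt8*, *Krt19*, *Krt5* and *Krt7*, and each neighbour after *Krt18* overlapped with the next, whereas *Krt18* lay above all others in each library. *Krt4*, a keratin of the upper layers of wet stratified epithelia, reached 79.8, 94.8 and 41.9 TPM (Ctrl) against 56.1, 55.5 and 49.2 TPM (Y/T KO). Its usual partner *Krt13* was only at 0.898 to 1.37 TPM (Ctrl) against 0.916 to 1.19 TPM (Y/T KO). *Krt5* likewise stood far above the usual partner *Krt14*, by a ratio of 64.1 to 100 in Ctrl bladder and 133 to 358 in Y/T KO bladder, while the ratio of *Krt5* to *Krt15* was 0.670 to 0.896 and 0.493 to 0.582.

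The remaining named keratins were of low level. *Krt23* and *Krt80* were the highest of them in bladder, *Krt23* at 12.2, 18.3 and 14.3 TPM (Ctrl) against 8.06, 12.7 and 12.8 TPM (Y/T KO) and *Krt80* at 11.2, 17.3 and 13.5 TPM against 11.1, 8.33 and 8.48 TPM. In colon *Krt23* was at 10.4, 9.22 and 11.9 TPM against 11.3, 8.19 and 5.73 TPM, and *Krt80* at 1.63 to 2.37 TPM against 1.24 to 2.76 TPM. *Krt10*, a keratin of the upper layers of epidermis, was alike in both tissues, at 4.09, 6.44 and 5.87 TPM against 4.76, 5.88 and 6.62 TPM in colon and at 7.33, 7.30 and 6.10 TPM against 5.87, 4.29 and 10.5 TPM in bladder. Its usual partner *Krt1* reached only 0.402, 0.757 and 1.09 TPM in Ctrl bladder and at most 0.103 TPM in colon. *Krt78* and *Krt79*, of stratified and glandular epithelia, were at 2.87, 4.18 and 4.49 TPM and at 1.69, 1.19 and 2.19 TPM in Ctrl bladder and below 0.9 TPM in Ctrl colon, and *Krt222*, a short relative, lay at 0.259 to 2.61 TPM over all 12 libraries.

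**Figure D2:**
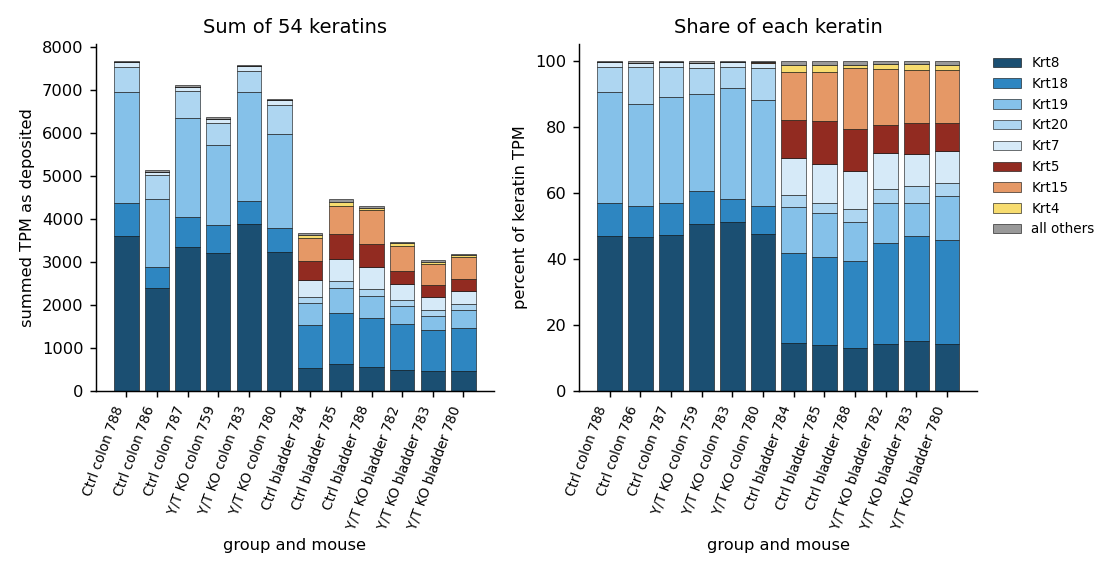
Keratin composition of each library. Left, summed TPM of all 54 keratins as deposited; right, the percent of that sum from each of 8 keratins and from all others. *Krt8* and *Krt19* fill most of the colon bars, and *Krt5* and *Krt15* appear as blocks only in the 6 bladder bars at this scale.

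How far the keratins differ between the tissues was tested in Ctrl mice with limma over all 12 libraries, on log2(TPM + 0.1) after rescaling, with fold changes given as colon over bladder. Of the 23 keratins tested, 17 (73.9%) differed at an adjusted p under 0.05, beside 50.4% of the 19773 genes tested. Lower in Ctrl colon were 10 (43.5%, beside 25.3% of all genes) and higher were 7 (30.4%, beside 25.1%). Among these 23 were 6 that reached the minimum of the filter, 0.5 TPM, in libraries of only 1 of these groups, so the count over tested members is a description. *Krt5* was at 0.712, 0.584 and 0.228 TPM in Ctrl colon but 423, 586 and 537 TPM in Ctrl bladder, a log2 difference of −9.58 ± 0.311 (SE, n = 3 per group, adjusted p = 5.97e-10). *Krt15* followed with −9.01 ± 0.235 (adjusted p = 1.06e-10), from 0.667 to 1.48 TPM in Ctrl colon. *Krt4* and *Krt6a* were called lower as well, but both were listed at 0 in all 3 Ctrl colon libraries, so that no fold is given. Also called lower in colon were *Krt80* (−2.47), an epithelial keratin of broad distribution, *Krt7* (−2.18), *Krt79* (−2.02) and *Krt78* (−2.01). *Krt1* was called lower too (−2.27), but of these groups it reached the filter minimum in Ctrl bladder only. Its Ctrl colon values, 0.0309 to 0.0752 TPM, lie under the pseudocount, which sets the size of the difference. Of the simple keratins *Krt8* (2.68 ± 0.170, 6.40-fold), *Krt20* (2.32 ± 0.145) and *Krt19* (2.23 ± 0.208) were higher in Ctrl colon, whereas *Krt18* was lower (−0.53 ± 0.174, adjusted p = 0.0244). The call for *Krt18* was lost without the Ctrl bladder library of mouse 785 (adjusted p = 0.0778) or of mouse 788 (adjusted p = 0.0533). The ratio of *Krt8* to *Krt18*, partners in 1 filament, was 4.82 ± 0.0644 in Ctrl colon and 0.521 ± 0.0183 in Ctrl bladder.

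Low-level keratins of the colon came from classes not known for gut. *Krt17*, a type I keratin of activated and hair follicle epithelium, was at 14.4, 6.88 and 9.68 TPM in Ctrl colon but 0.420, 0.802 and 0.644 TPM in Ctrl bladder (log2 difference 4.06 ± 0.779, adjusted p = 0.00109). *Krt36*, a type I keratin known from hair, nail and tongue papillae, was at 1.51, 1.07 and 1.45 TPM in Ctrl colon but 0.220, 0.108 and 0.114 TPM in Ctrl bladder (2.75 ± 0.389, adjusted p = 0.000118). *Krt87*, of the hair keratins of type II, was at 1.23, 1.20 and 1.13 TPM in Ctrl colon and listed at 0 in Ctrl bladder. *Krt84*, of the hair and nail class, likewise of type II and known from tongue, was at 0.389, 0.145 and 0.268 TPM in Ctrl colon and listed at 0 in all 6 bladder libraries. All 4 ranges in Ctrl colon lay above those in Ctrl bladder. *Krt36* and *Krt87* reached the filter minimum in Ctrl colon only, and the difference of *Krt36* was 1.11 with a pseudocount of 1 TPM. The call for *Krt84* ended with a pseudocount of 0.5 TPM (adjusted p = 0.141). *Krt87* shares 397 bases at 97.2% identity with *Krt81* and 980 bases at 96.0% identity with *Gm49425*, so its reads are uncertain, and *Krt36* and *Krt84* shared no run of 100 bases at 95% identity with another gene. *Krt12* was tested as well (log2 difference 2.07, adjusted p = 0.0602). *Krt10* and *Krt23* were not called, at 4.09 to 6.44 and 9.22 to 11.9 TPM in Ctrl colon and 6.10 to 7.33 and 12.2 to 18.3 TPM in Ctrl bladder.

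In Y/T KO mice 19 of the 23 keratins (82.6%, beside 51.3% of all genes) differed between the tissues, 10 lower in colon (43.5%, beside 25.6%) and 9 higher (39.1%, beside 25.8%). Of the 23, 9 reached the filter minimum in 1 of these groups only. This comparison contrasts other libraries than the previous one. Both came from the same fit over all 12 libraries with a common estimate of the spread, so the tests are not independent. *Krt5* differed by −7.97 ± 0.311 (adjusted p = 2.96e-09), *Krt15* by −7.95 ± 0.235 and *Krt8* by 3.14 ± 0.170, each on the log2 scale. *Krt36* was higher in Y/T KO colon than in Y/T KO bladder (5.74 ± 0.389, adjusted p = 3.23e-07), where it was at 0, 0.0705 and 0.0875 TPM in mice 782, 783 and 780. It entered through Y/T KO colon only, and its bladder values lie under the pseudocount, which sets the size of the difference (3.04 on the log2 scale with a pseudocount of 1 TPM). *Krt13* and *Krt14* were called higher in Y/T KO colon (1.36 ± 0.419, adjusted p = 0.018, and 1.27 ± 0.471, adjusted p = 0.0415) and were not called in Ctrl mice. The call for *Krt13* was lost without the Y/T KO colon library of mouse 780 (adjusted p = 0.0769) or the Y/T KO bladder library of mouse 782 (adjusted p = 0.0536). The call for *Krt14* was lost when any 1 of 6 libraries was left out, with adjusted p values of 0.0528 and 0.0516 for the Ctrl colon and Ctrl bladder libraries of mouse 788, 0.154 and 0.0565 for the Y/T KO colon libraries of mice 759 and 783, and 0.0593 and 0.155 for the Y/T KO bladder libraries of mice 782 and 783. It was also lost in 5 settings that kept every library, namely a pseudocount of 1 TPM (adjusted p = 0.0545), no filter (0.0604), TPM as deposited (0.0926), FPKM as deposited (0.0556) and moderation without trend and robust settings (0.0504). *Krt18* was called lower in Y/T KO colon (−0.51 ± 0.174, adjusted p = 0.0288), and this call was lost without the Y/T KO colon library of mouse 783 or 780 (adjusted p = 0.0912 and 0.0718) or without any 1 of the Y/T KO bladder libraries of mice 782, 783 and 780 (0.0673, 0.0649 and 0.0575).

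The next question was whether loss of YAP and TAZ in smooth muscle changed keratins of the colon. No keratin passed the test, 0 of 18 at an adjusted p under 0.05 in limma, beside 0.137% of the 17500 genes tested. Under 0.1 there was 1 of 18, *Krt36*, beside 0.240% of all genes. At an unadjusted p under 0.05 there were 4 of 18 (22.2%, beside 9.73% of all genes), namely *Krt36*, *Krt84*, *Krt13* and *Krt17*. Groups did not overlap for these 4 and for *Krt87*, 5 of 18 (27.8%, beside 16.1% of all genes), of which 4 were higher in Y/T KO colon (22.2%, beside 8.24%) and 1 was lower (5.56%, beside 7.87%). Below 0 were 5 of 18 log2 fold changes, beside 49.1% of all genes. The 5 simple keratins had log2 fold changes between −0.09 and 0.28 (median 0.08, beside a median of 0.01 over all genes tested), 4 of them smaller than their SE. The median moved to −0.18 without the Ctrl library of mouse 786, the library with the lowest *Krt8*. The 8 stratified keratins tested had a median of 0.36, with 7 above 0. Of these, *Krt78*, *Krt10*, *Krt14* and *Krt12* had log2 fold changes smaller than their SE. As a class, stratified keratins made up 0.346% ± 0.0317 (SD, n = 3) of the keratin TPM in Ctrl colon and 0.262% ± 0.049 in Y/T KO colon. The 3 hair and nail keratins tested had a median of 2.33, *Krt84* among them having entered the test through Y/T KO libraries only.

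*Krt36* was at 1.51, 1.07 and 1.45 TPM (Ctrl) against 7.09, 4.64 and 9.99 TPM (Y/T KO). Each Y/T KO library lay above each Ctrl library, and the log2 fold change was 2.33 ± 0.341 (SE, n = 3 per group, 5.03-fold, limma adjusted p = 0.0805). *Krt84* was at 0.389, 0.145 and 0.268 TPM (Ctrl) against 2.87, 1.16 and 4.71 TPM (Y/T KO), which gave 2.91 ± 0.561 on the log2 scale (adjusted p = 0.17). Again the groups did not overlap, and *Krt84* reached the filter minimum of 0.5 TPM in Y/T KO libraries only, so that it could enter the test only by being high there. When all 12 libraries were fitted together in limma, both genes passed, *Krt36* with an adjusted p of 0.0324 and *Krt84* with 0.0435. The bladder libraries, where *Krt84* was at 0 throughout and *Krt36* at most at 0.220 TPM, entered the spread of that fit. These passes are therefore no support beyond the colon values. Over the other alternatives with every library the adjusted p of *Krt36* went up to 0.134 and that of *Krt84* to 0.231. *Krt36* and *Krt84* lie on chromosomes 11 (100102007 to 100105626) and 15 (101525026 to 101532820) and are a type I and a type II keratin. *Krt13*, of the upper layers of wet stratified epithelia, was at 0.658, 0.576 and 1.14 TPM (Ctrl) against 2.39, 1.24 and 4.04 TPM (Y/T KO) (1.51 ± 0.486, adjusted p = 0.435). For *Krt36*, *Krt84* and *Krt13* alike, mouse 780 was the highest and mouse 783 the lowest of the Y/T KO colon libraries. *Krt87* was at 1.23, 1.20 and 1.13 TPM (Ctrl) against 2.69, 1.58 and 1.51 TPM (Y/T KO) (0.64 ± 0.312, adjusted p = 0.559).

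*Krt17* went the other way. It was at 14.4, 6.88 and 9.68 TPM (Ctrl) against 3.65, 1.22 and 0.225 TPM (Y/T KO). The lowest Ctrl value was above the highest Y/T KO value, and the log2 fold change of −3.05 had a wide error (SE 0.849, adjusted p = 0.386). The basal keratins *Krt5*, *Krt14* and *Krt15* stayed between 0.228 and 5.07 TPM in all 6 colon libraries and overlapped between genotypes, and *Krt4*, listed at 0 in Ctrl colon, was at most at 0.165 TPM in Y/T KO colon.

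**Figure D3:**
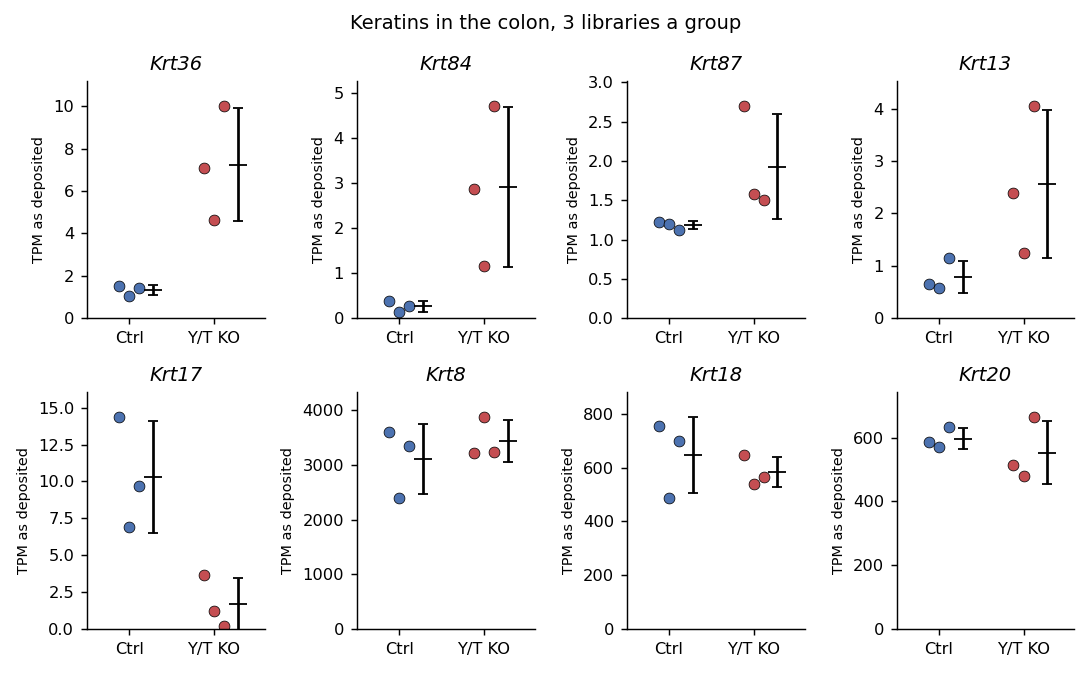
Levels of 8 keratins in the colon, in TPM as deposited on linear axes that start at 0. Points are libraries (3 Ctrl in blue, 3 Y/T KO in red) and bars are mean ± SD; *Krt36*, *Krt84*, *Krt87* and *Krt13* lie higher and *Krt17* lies lower in all Y/T KO libraries, and *Krt8*, *Krt18* and *Krt20* overlap.

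Markers of other epithelia were read beside these values in the same colon libraries. Of 63 hair follicle genes, 53 were listed at 0 in Ctrl colon and 55 in Y/T KO colon, their summed level was 1.46 to 1.77 TPM and 1.28 to 2.59 TPM, and *Hoxc13*, a transcription factor that drives hair keratins, was listed at 0 in all 12 libraries. The forkhead factor *Foxn1* of hair and nail was at 0.799, 0.326 and 0.300 TPM (Ctrl) against 0.970, 0.907 and 1.32 TPM (Y/T KO). *Tchh* of the same hair follicle list went the other way. It was at 0.261, 0.341 and 0.277 TPM (Ctrl) against 0.143, 0.0856 and 0.256 TPM (Y/T KO), and was too low to be tested in colon. For 11 cornified squamous markers, the summed level was 33.0 to 51.8 TPM (Ctrl) against 34.2 to 43.2 TPM (Y/T KO), most of it from *Casp14*, and the basal factor *Trp63* was at most at 0.0972 TPM. *Sbsn* of the same list, a protein of upper epidermal layers, was at 1.44, 1.22 and 1.65 TPM (Ctrl) against 3.66, 2.34 and 5.67 TPM (Y/T KO), with no overlap and with the Y/T KO libraries in the same order as for *Krt36*, *Krt84* and *Krt13* (log2 fold change 1.33 ± 0.366, limma adjusted p = 0.368). Of the 4 cornified squamous markers tested in colon, 2 had a log2 fold change above 0, *Sbsn* and *Krtdap* (0.64). The other 2 lay below 0, *Casp14* (−0.24) and *Lgals7* (−0.22). The sum of 3 basal stratified markers was 132 to 194 TPM (Ctrl) against 189 to 345 TPM (Y/T KO), and that of 5 smooth muscle genes was 5382 to 5917 TPM and 3327 to 4083 TPM. The 10 colonic epithelial markers summed to 11700, 10510 and 10940 TPM (Ctrl) against 10130, 9799 and 8284 TPM (Y/T KO). Of the 9 tested, 4 had an unadjusted p under 0.05, all lower (beside 4.59% of all genes), but 0 passed (beside 0.137% of all genes). *Foxn1*, *Tchh*, *Sbsn*, the colonic epithelial sum and the smooth muscle sum did not overlap between genotypes, and the hair follicle, cornified squamous and basal stratified sums did. The part of these shifts in the keratin values was not tested.

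In the bladder most keratins lay lower in Y/T KO mice, but again none passed the test. Of 18 keratins tested, 0 had an adjusted p under 0.05 in limma, beside 0.302% of the 18237 genes tested, and 1, *Krt5*, was under 0.1, beside 0.768%. At an unadjusted p under 0.05 there were 7 (38.9%, beside 14.8% of all genes), all lower (beside 8.20% of all genes), namely *Krt5*, *Krt14*, *Krt7*, *Krt19*, *Krt8*, *Krt80* and *Krt15*. The log2 fold change was below 0 for 16 of 18 keratins (88.9%, beside 49.8% of all genes). For 8 of 18 (44.4%, beside 11.4% of all genes) all 3 rescaled Y/T KO values were under the lowest Ctrl value. The median was −0.29 over the 5 simple keratins and −0.46 over the 10 stratified keratins tested, beside 0.00 over all genes. All keratins together made up 0.415% ± 0.0415 of the library TPM in Ctrl bladder and 0.323% ± 0.0214 in Y/T KO bladder (SD, n = 3).

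*Krt5*, the type II keratin of basal cells, was at 423, 586 and 537 TPM (Ctrl) against 289, 285 and 277 TPM (Y/T KO). The Y/T KO values were close to each other and below all Ctrl values, and the log2 fold change was −0.85 ± 0.120 (SE, n = 3 per group, 1.80-fold lower, limma adjusted p = 0.0628). Leaving out the Ctrl library of mouse 784 brought the adjusted p to 0.0496, and fitting all 12 libraries together brought it to 0.315. *Krt14*, the usual type I partner of *Krt5*, was at 4.23, 9.14 and 8.26 TPM (Ctrl) against 1.76, 0.796 and 2.08 TPM (Y/T KO) (−2.17 ± 0.422, adjusted p = 0.119). *Krt15*, the far more abundant type I basal keratin, overlapped between genotypes (−0.32 ± 0.131, adjusted p = 0.327). The ratio of *Krt5* to *Trp63*, a transcription factor of basal cells, was 8.10 to 12.7 in Ctrl bladder and 5.47 to 6.71 in Y/T KO bladder, while that of *Krt15* to *Trp63* was 11.5 to 14.2 and 10.7 to 12.3. *Trp63* itself was at 47.0, 46.1 and 66.4 TPM (Ctrl) against 52.8, 45.7 and 41.2 TPM (Y/T KO).

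*Krt7*, of the urothelium and ducts, was at 414, 521 and 507 TPM (Ctrl) against 379, 291 and 303 TPM (Y/T KO) (−0.57 ± 0.116, adjusted p = 0.135). *Krt19* was at 514, 590 and 511 TPM (Ctrl) against 417, 306 and 427 TPM (Y/T KO) (−0.50 ± 0.132, adjusted p = 0.183). *Krt8* gave −0.29 ± 0.081 (adjusted p = 0.207) and *Krt80* −0.58 ± 0.191 (adjusted p = 0.252). These 4 did not overlap between genotypes. Smaller was the difference of *Krt18*, the most abundant keratin of the bladder, at −0.13 ± 0.0797 (adjusted p = 0.477), whose groups did not overlap after rescaling but did as deposited. *Krt20*, at 128, 142 and 162 TPM (Ctrl) against 152, 154 and 131 TPM (Y/T KO), overlapped, and its log2 fold change was smaller than its SE. *Krt6a*, a type II keratin of activated epithelium, was at 0.862, 1.05 and 0.677 TPM (Ctrl) against 0.406, 0 and 0.431 TPM (Y/T KO) (adjusted p = 0.353), and reached the filter minimum in Ctrl libraries only. It shares 1189 bases at 97.1% identity with *Krt6b*, so the reads of this pair are uncertain. By type, the ratio of summed type I to type II keratins was 1.41 to 1.57 in Ctrl bladder and 1.75 to 1.90 in Y/T KO bladder, against 1.06 to 1.08 in Ctrl colon and 0.899 to 1.03 in Y/T KO colon.

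**Figure D4:**
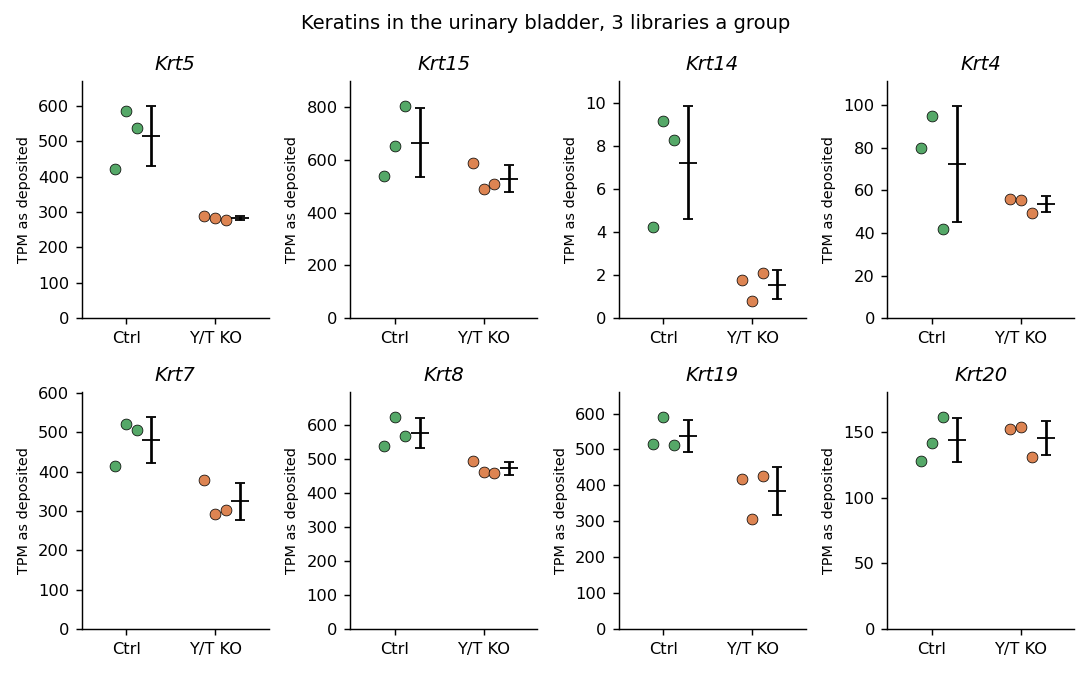
Levels of 8 keratins in the urinary bladder, in TPM as deposited on linear axes that start at 0. Points are libraries (3 Ctrl in green, 3 Y/T KO in orange) and bars are mean ± SD; *Krt5*, *Krt14*, *Krt7*, *Krt8* and *Krt19* lie lower in all Y/T KO libraries, and *Krt15*, *Krt4* and *Krt20* overlap.

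Bladder libraries differed in genes of neighbouring tissues. *Pbsn*, a secretory product of the prostate, was at 967, 0 and 0.728 TPM (Ctrl) against 0, 33.9 and 311 TPM (Y/T KO). Without the libraries above 100 TPM *Pbsn* (Ctrl bladder of mouse 784 and Y/T KO bladder of mouse 780), a choice made after seeing the data, the log2 fold change of *Krt5* was −0.94 (adjusted p = 0.202), that of *Krt14* −2.74 and that of *Krt7* −0.60. Without them 0 keratins were called in bladder. Between Ctrl tissues 17 were called, of which 16 were shared with the full set, since *Krt14* became called (adjusted p = 0.048) and *Krt6a* was no longer tested. Between Y/T KO tissues 17 were called, and *Krt13* (adjusted p = 0.0626) and *Krt18* (adjusted p = 0.0703) were no longer called. The 4 mesothelial markers summed to 270, 450 and 293 TPM (Ctrl) against 378, 147 and 198 TPM (Y/T KO), the 6 urothelial markers to 6129 to 6538 TPM and 5029 to 6507 TPM, the 3 general epithelial markers to 202 to 251 TPM and 214 to 286 TPM, and the 5 smooth muscle genes to 24960 to 33810 TPM and 11780 to 22020 TPM. The 3 basal stratified markers summed to 251, 274 and 271 TPM (Ctrl) against 231, 215 and 191 TPM (Y/T KO), with *Sfn* at 182, 204 and 172 TPM against 154, 144 and 127 TPM (log2 fold change −0.39 ± 0.114, limma adjusted p = 0.214). *Serpinb5* of this list overlapped between genotypes (log2 fold change −0.12), as did *Trp63*. The 63 hair follicle genes summed to 4.28 to 5.31 TPM against 2.02 to 3.91 TPM and the 11 cornified squamous markers to 48.4 to 83.3 TPM against 35.0 to 53.7 TPM. The smooth muscle, basal stratified and hair follicle sums did not overlap between genotypes, the urothelial, general epithelial, mesothelial and cornified squamous sums did, and their part in the keratin values was not tested.

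**Figure D5:**
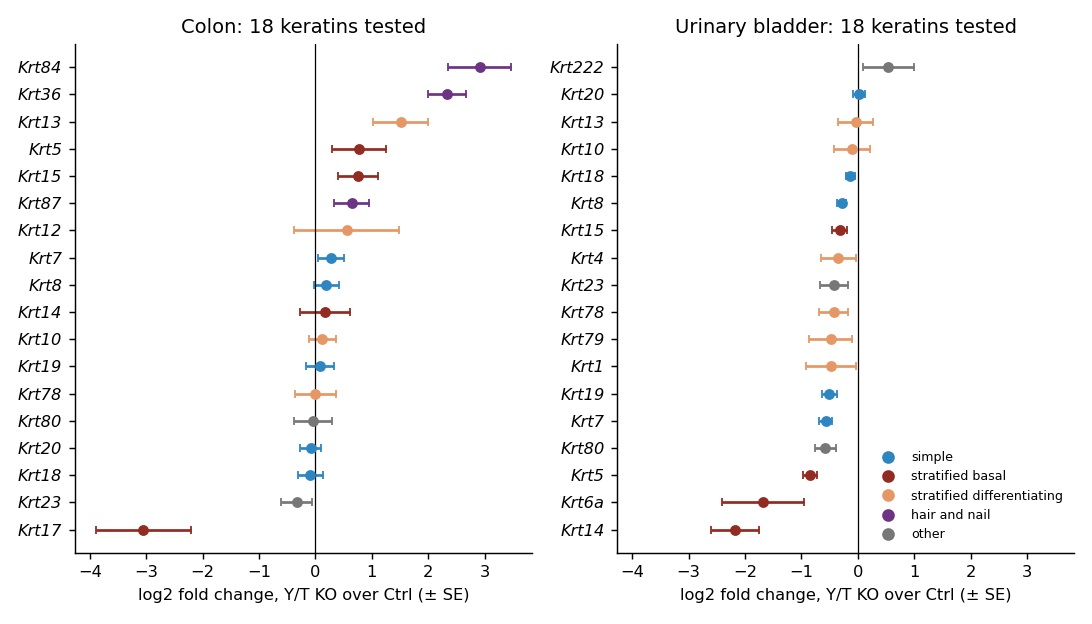
Log2 fold change of each tested keratin, Y/T KO over Ctrl, on the log2(TPM + 0.1) scale after rescaling, in colon (left) and urinary bladder (right); points are coloured by keratin class and bars are ± SE from limma (3 libraries per group). In bladder 16 of 18 points lie below 0, and in colon *Krt84* and *Krt36* lie farthest above and *Krt17* farthest below 0.

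Whether the genotype difference itself differed between colon and bladder was tested as an interaction over all 12 libraries. No keratin was called, 0 of 23 at an adjusted p under 0.05, beside 0.0607% of the 19773 genes tested, and 9 of 23 (39.1%) had an unadjusted p under 0.05, beside 11.9% of all genes. All 9 had a higher genotype difference in colon than in bladder (beside 6.43% of all genes in this direction). For 4 of them, *Krt36*, *Krt84*, *Krt6a* and *Krt4*, the levels in 1 tissue were at 0 or near the pseudocount, so that the size of the interaction depends on the pseudocount. The interaction of *Krt4* was 1.26 and that of *Krt6a* 2.48 on the log2 scale, against bladder log2 fold changes of −0.35 and −1.68. *Krt36* had an adjusted p of 0.101 (2.99 ± 0.550 on the log2 scale), and *Krt84*, at 0 in all bladder libraries, one of 0.217. The other 5 were *Krt5* (1.61 ± 0.439, adjusted p = 0.232), *Krt14* (2.32 ± 0.665, adjusted p = 0.255), *Krt15* (1.06 ± 0.332, adjusted p = 0.277), *Krt7* (0.83 ± 0.277, adjusted p = 0.297) and *Krt13* (1.54 ± 0.593, adjusted p = 0.349). In colon *Krt5* and *Krt15* were also low, at 0.228 to 1.17 TPM and 0.667 to 1.85 TPM. The colon log2 fold changes of *Krt5* (0.77), *Krt15* (0.75) and *Krt13* (1.51) went down to 0.33, 0.44 and 0.94 over alternatives that kept every library. With 3 libraries against 3, an exact permutation test of a single value cannot go below p = 0.10, so the calls rest on the spread that limma shares across genes.

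Genes that tie keratin filaments to cell junctions were set beside the keratins. The list held 16 genes of desmosome plaques, hemidesmosomes and cytolinkers, of which 15 were tested in each tissue and 0 passed. In colon 0 of 15 had an unadjusted p under 0.05 (beside 9.73% of all genes) and the median log2 fold change was 0.01, as over all genes. In bladder 5 of 15 had an unadjusted p under 0.05, all lower (beside 8.20% of all genes). Below 0 were 13 of 15 (beside 49.8% of all genes), and the median was −0.17 (beside 0.00 over all genes). These 5 were the desmosomal plakophilin *Pkp3* (−0.71 ± 0.148, limma adjusted p = 0.141), the hemidesmosomal integrin *Itgb4* (−0.53), the cytolinker *Plec* (−0.45), the envelope protein *Evpl* (−0.48) and *Fam83h* (−0.28).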

How the data were processed

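RNA was extracted from distal colon and urinary bladder, and poly(A) libraries were made with the TruSeq Stranded mRNA kit. Per the labels, the submitters' processing notes name bcl2fastq, FastQC, HISAT2, StringTie and DESeq2 and the build GRCm38, and versions are not given in the sources used here. The deposited tables list, per library and gene, TPM and FPKM values and the mean coverage per base, in the column layout of StringTie gene abundance output. The TPM values, as deposited, are relative to library size and gene length, the FPKM values of the authors were used only as an alternative, and the deposited coverage only for the depth. Read counts were not used here, so that no interval from counts is given and the DESeq2 test on counts was replaced by limma (3.58.1, R 4.3.3).

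TPM was summed by gene identifier, rescaled by median-of-ratios size factors (0.878 to 1.14 over 12 libraries, 0.966 to 1.11 within a tissue), and tested as log2(TPM + 0.1) with empirical Bayes moderation (trend and robust), two-sided. A gene was kept where 3 or more libraries of a fit reached 0.5 TPM, p-values were adjusted by Benjamini-Hochberg over all genes tested, and adjusted p under 0.05 was called. Fold changes on this scale understate the change of low genes. Genotype was tested in the 6 libraries of each tissue, and tissue and interaction in all 12. Named were keratins with a mean of at least 1 TPM in a group or called in any of 5 comparisons, and non-members only from the marker and partner lists where a keratin value is read beside them. Members and lists were chosen with earlier results of these data known. Each library is a separate mouse within its group, but mice 788, 783 and 780 gave both tissues. The deviations of the 3 same-mouse pairs correlated with r between -0.00913 and 0.0675 (mean of 15 other pairs -0.00686), and the mouse was a block (consensus correlation 0.0516) in an alternative only. The scripts were tested on simulated data. Shared sequence was searched with blastn (2.17.0, at least 95% identity over at least 100 bases) among annotated transcripts, and keratins were summarised and drawn with pandas 2.3.3 and matplotlib 3.10.9 (Python 3.11.15). Alternatives were other pseudocounts, filters, scalings and moderation, FPKM, an adjusted p under 0.1, a joint fit, the block, each library left out, and the 2 bladder libraries with high *Pbsn* left out. Whether the authors counted reads by strand is not stated, and *Krt5*, *Krt6a*, *Krt7*, *Krt8*, *Krt10* and *Krt80* overlap annotated antisense genes.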

Additional observations from a re-analysis of the deposited data

How the results depend on the processing

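With 3 libraries per group and no counts, the tests had little power for keratins under a few TPM, for which 1 TPM stood for about 1 read of depth per base, and values near the pseudocount depended on it. No direction of a fold change at least as large as its SE reversed. Of 763 values of named keratins under alternatives that kept every library, 745 kept their side of the threshold, 9 lost and 9 gained a call, and of 747 with a library left out, 729 kept it, 15 lost and 3 gained a call. The count of keratins called in colon was 0, and 1 at an adjusted p under 0.1. It was 2 (*Krt36* and *Krt84*) with all 12 libraries in one fit, where their bladder values at or near 0 entered the spread. With the mouse as replicate block in that fit it was 2. In bladder it was 0, 1 at an adjusted p under 0.1, and 0 to 1 with a library left out, the 1 being *Krt5* without the Ctrl library of mouse 784, while in colon it stayed 0. With the block 17, 19 and 0 keratins were called in the comparisons of Ctrl tissues, of Y/T KO tissues and of the genotype effect between tissues, as without it, and no other call changed. *Krt14* became called between Ctrl tissues with TPM as deposited (adjusted p = 0.0368), and with a library left out (Ctrl colon of mouse 787, Ctrl bladder of mouse 784, or both libraries high in *Pbsn*). The cause of these changes was not tested.

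The median log2 fold change of the hair and nail keratins tested in colon (2.33) was 1.53 with a pseudocount of 1 TPM and 0.555 with no filter, which adds genes at or near 0, and 1.35 to 2.44 with a library left out. That of simple keratins in colon (0.08) ranged from -0.18 to 0.254 with a library left out. Between Ctrl tissues the median of stratified keratins (-2.02) was -1.17 and -0.843 with pseudocounts of 0.5 and 1 TPM, -1.18 with no filter, -1.53 with a mean of at least 1 TPM, and -2.20 to -1.39 with a library left out. For hair and nail keratins (2.75) it was 1.62, 1.11 and 0.00 under the pseudocounts and no filter, 2.20 with FPKM, and 2.63 to 3.28 with a library left out, and for simple keratins (2.23) it was 1.97 with TPM as deposited. Between Y/T KO tissues the median of stratified keratins (-1.13) was -0.503, -0.298 and -0.324 under the pseudocounts and no filter, -1.65 without the 2 libraries high in *Pbsn* (added after seeing the data), and -1.72 to -0.752 with a library left out. For hair and nail keratins (4.84) it was 2.73, 1.95 and 0.494 under the pseudocounts and no filter, 5.74 with a mean of at least 1 TPM and 3.82 with FPKM, and for simple keratins (2.19) it was 1.91 with TPM as deposited. The median genotype effect of hair and nail keratins in colon against bladder (2.93) was 2.08, 1.59 and 0.263 under the pseudocounts and no filter, and 1.47 to 3.09 with a library left out. With TPM as deposited, the summed TPM of simple keratins was 2844 in Ctrl bladder (2572 after rescaling) and 2331 in Y/T KO bladder (2105), that of stratified keratins in Y/T KO bladder 879.6 (795), and that of all keratins 6915 in Y/T KO colon (7563), 4151 in Ctrl bladder (3752) and 3233 in Y/T KO bladder (2920). Shares of the classes were computed with TPM and FPKM, but sums in FPKM, another unit, were not run.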
